A study of Homo sapiens with 14 samples.

Results

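The genes described here are 8 immediate early genes that lie outside the AP-1 family and encode transcription regulators or other early regulators: EGR1, NR4A1, KLF4, KLF6, IER2, IER3, ZFP36 and MYC. They were chosen by name as serum response genes, by a rule that uses no measured value, though with earlier results of these data known. The deposited gene table holds 12425 genes, of which 12411 are nuclear. It has a row for 7 of the 8, and IER3 was not analysed here.

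The study mapped RNA polymerase II (RNAPII) by ChIP-seq, the sequencing of DNA recovered with an antibody from chromatin. The cells were BJ hTERT, human foreskin fibroblasts made immortal with telomerase and grown in serum-containing medium. The study asked how inhibition of ATR, the kinase that signals replication stress, affects RNAPII transcription in S phase. One antibody was raised against the N-terminal domain of Rpb1 (total RNAPII), and the other against the Ser2 form of Rpb1, in which serine 2 of the repeated tail carries a phosphate, the form found on elongating polymerase. For each antibody there was 1 library at 14 h with no treatment name, 1 each at 16, 19 and 22 h with DMSO (the vehicle), and 1 each at the same hours with an ATR inhibitor (ATRi), which makes 14 libraries. The zero point of the hours, the inhibitor, its dose, the way cells were brought into S phase and any change of serum are not given in the sources used here. Nor is it stated whether both antibodies were used on the same chromatin.

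Immediate early genes are switched on within minutes of a growth factor or stress signal, without new protein synthesis. Ras and MAP kinases act through serum response factor (SRF) and its partners at DNA elements called CArG boxes, and through CREB and related factors. The products then drive later genes, and several of them also shut the response down again. EGR1 is a zinc finger factor and a classical SRF target, NR4A1 an orphan nuclear receptor, and KLF4 and KLF6 are Krüppel-like zinc finger factors. IER2 is a short nuclear protein, ZFP36 (tristetraprolin) binds AU-rich mRNAs and speeds their decay, and MYC is a basic helix-loop-helix factor that pairs with MAX.

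The sequences before the starts of EGR1, IER2 and ZFP36 are shown because the largest changes described below are those of EGR1, while IER2 and ZFP36 are short genes of higher density that moved less. They are RefSeq sequences of GRCh38.p14, 5′ to 3′ on the gene's strand, which is the plus strand for all 3. The windows are the 250 bases before the RefSeq start, of which ZFP36 is shown from 250 to 35 bases before it. Capitals mark CArG boxes in EGR1 and GGGCGG, in either orientation, in IER2 and ZFP36.
EGR1, chr5:138465229-138465478: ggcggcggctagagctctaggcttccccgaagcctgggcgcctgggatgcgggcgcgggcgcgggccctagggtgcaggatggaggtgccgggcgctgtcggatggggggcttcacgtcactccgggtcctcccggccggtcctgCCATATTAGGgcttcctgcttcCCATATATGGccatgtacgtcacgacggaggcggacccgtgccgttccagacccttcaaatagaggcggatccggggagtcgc
IER2, chr19:13150161-13150410: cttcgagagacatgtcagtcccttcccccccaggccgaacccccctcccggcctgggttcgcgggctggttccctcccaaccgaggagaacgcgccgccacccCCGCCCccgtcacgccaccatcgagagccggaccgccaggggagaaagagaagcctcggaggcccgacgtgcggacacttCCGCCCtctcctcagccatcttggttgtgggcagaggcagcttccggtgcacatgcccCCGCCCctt
ZFP36, chr19:39406597-39406812: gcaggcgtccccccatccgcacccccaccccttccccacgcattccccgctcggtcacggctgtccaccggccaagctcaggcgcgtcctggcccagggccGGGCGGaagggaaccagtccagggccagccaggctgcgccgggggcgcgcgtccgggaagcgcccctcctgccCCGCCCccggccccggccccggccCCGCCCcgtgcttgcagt

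Motifs were searched on both strands of the 250 bases before each RefSeq start. A CArG box was read as CC, then A or T at 6 positions, then GG. The EGR1 window holds 2 of them, CCATATTAGG from 105 to 96 and CCATATATGG from 83 to 74 bases before the start. Of all 35116 promoters in the table, 1.16% hold a CArG box in a window of this length. The windows of NR4A1 (2 starts), KLF4, KLF6, IER2 and ZFP36 hold no CArG box, and MYC was left out of the motif search. GGGCGG, the core of the GC box bound by Sp1 and by Krüppel-like factors, occurs 4 times before KLF4, 3 times before IER2 and ZFP36 each, 2 times before KLF6, 1 time before the second NR4A1 start and 0 times before EGR1 and the first NR4A1 start. It is present in 42.6% of all promoters. TGACG, the core of the CREB site, occurs 2 times before EGR1 and KLF4 each and 1 time before IER2, against 21.2% of all promoters with at least 1. The full site TGACGTCA (1.65% of promoters, and itself a TGACG match on each strand) and TATAAA (10.7%) were in none of the windows. KLF6 has GCGGGGGCG, the sequence bound by EGR1 (4.72% of promoters), which overlaps one of its GGGCGG matches, and KLF4 and KLF6 each have 1 CACGTG, the E-box bound by MYC with MAX (6.35%). A match describes these letters only and is no evidence of binding.

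Levels are in RPM, the reads over the whole gene span scaled to the library's total, which the authors did not divide by gene length. Gene positions are those of the deposited table (hg38). EGR1 (ENSG00000120738) spans 3826 bp at chr5:138465490-138469315 on the plus strand, IER2 (ENSG00000160888) 4494 bp at chr19:13150415-13154908, plus, and ZFP36 (ENSG00000128016) 2600 bp at chr19:39406813-39409412, plus. KLF4 (ENSG00000136826) spans 5631 bp at chr9:107484852-107490482 and KLF6 (ENSG00000067082) 9286 bp at chr10:3775996-3785281, both on the minus strand. MYC (ENSG00000136997) spans 6001 bp at chr8:127735434-127741434, plus. NR4A1 (ENSG00000123358) has by far the longest span, 36676 bp at chr12:52022832-52059507, plus, and 38.0% of it is shared with NR4A1AS, LOC124902934 and LOC107984510, so reads there cannot be assigned to NR4A1 alone. The spans of the other 6 overlap no RefSeq gene. Each span holds exons, introns and UTRs together, so a change in RPM does not say where along a gene the polymerase lay.

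Libraries held 17181179 to 62368915 reads, and the lowest count of any of the 7 genes was 81 reads (EGR1, Ser2, 16 h ATRi), against a floor of 3 reads that stands at 0.048 to 0.175 RPM. The share of reads inside the listed nuclear genes was 63.5% to 72.0% in the 4 libraries at 19 h and 35.8% to 57.4% in the other 10. Since a higher share raises most genes together, differences are also given relative to the median gene of each library, and the part of this share in the results at 19 h was not tested. All 10 fibroblast markers were in the table (724 to 2245 RPM summed). Of 6 keratinocyte markers only KRT14 was listed (0.236 to 1.18 RPM), of 4 endothelial markers only VWF (15.2 to 50.5 RPM), and of 4 blood markers none. With 1 library per group no level has an error, and the 95% intervals below cover counting error only.

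Per kilobase, KLF6 carried the most RNAPII and NR4A1 the least. The median over the 7 total RNAPII libraries was 23.5 RPM per kb for KLF6, 12.8 for IER2, 12.6 for ZFP36, 7.23 for MYC, 6.50 for KLF4, 4.63 for EGR1 and 1.26 for NR4A1. In Ser2 the order was KLF6 (13.5), ZFP36 (6.54), IER2 (5.91), MYC (3.62), KLF4 (3.41), EGR1 (2.51) and NR4A1 (0.760). KLF6 was above the next gene, ZFP36 above MYC in total RNAPII, IER2 above MYC in Ser2, and EGR1 above NR4A1, in 7 of 7 libraries each. IER2 and ZFP36 changed places (IER2 higher in 5 of 7 total and 4 of 7 Ser2 libraries), as did MYC and KLF4 (MYC higher in 5 of 7 with either antibody) and KLF4 and EGR1 (KLF4 higher in 3 of 7 and 4 of 7), so these neighbours did not differ beyond their spread. Among all genes the density of KLF6 lay at the 99.3rd to 99.5th percentile, that of NR4A1 at the 65.5th to 78.4th.

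**Figure D1:**
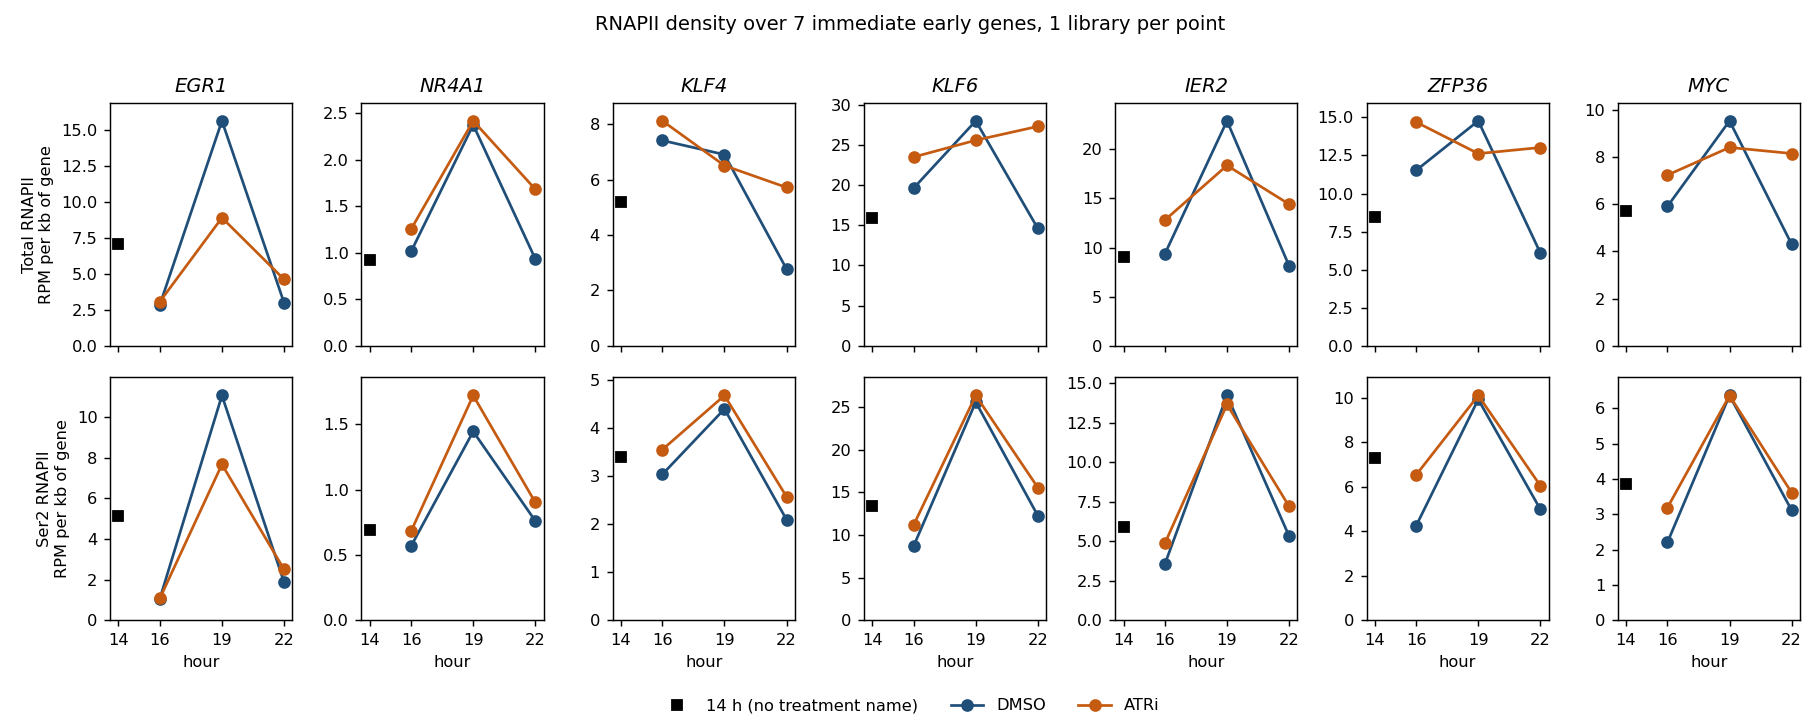
RNAPII density (RPM per kb of gene span) at 14, 16, 19 and 22 h in total RNAPII (top) and Ser2 (bottom) for 7 genes, 1 library per point, with DMSO and ATRi joined by lines and the 14 h library as a square. EGR1 had the widest range by fold, 2.86 to 15.7 RPM per kb in total RNAPII. In DMSO 6 of 7 genes were highest at 19 h with total RNAPII and all 7 with Ser2. So was the median gene, at 24.7, 35.6 and 19.8 RPM in total RNAPII and 15.6, 29.0 and 17.8 RPM in Ser2 (DMSO, 16, 19 and 22 h). Relative to the median gene, KLF4 and ZFP36 in total RNAPII and KLF4 in Ser2 were higher at 16 h than at 19 h in DMSO. KLF6 in total RNAPII hardly differed, at -0.01 from 16 to 19 h (95% counting interval -0.06 to 0.04).

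EGR1 had the widest fold range of the 7 genes. Its total RNAPII level was 27.2 RPM at 14 h. Through 16, 19 and 22 h it ran 10.95, 60.0 and 11.5 RPM in DMSO and 11.8, 34.1 and 17.7 RPM in ATRi. In Ser2 it was 19.6 RPM at 14 h, then 4.10, 42.3 and 7.20 RPM in DMSO and 4.15, 29.4 and 9.59 RPM in ATRi. EGR1 was thus high at 14 and 19 h and low at 16 and 22 h with both antibodies, and both 19 h libraries were above the other 5 of their antibody. The highest library exceeded the lowest 5.48-fold in total RNAPII and 10.3-fold in Ser2, against 1.92-fold (KLF6) to 2.93-fold (KLF4) and 2.23-fold (KLF4) to 3.98-fold (IER2) for the other 6 genes.

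Ranked among 12000 genes, those whose RPM averaged 1 or more, EGR1 stood at the end of the list in each step that ends in a DMSO library. From 14 h to 16 h DMSO it changed by -1.55 on the log2 scale relative to the median gene (95% counting interval -1.76 to -1.34) in total RNAPII and by -2.03 (-2.31 to -1.76) in Ser2, the lowest value of all with either antibody. From 16 to 19 h in DMSO it changed by 1.87 (1.70 to 2.05) and 2.35 (2.11 to 2.59), the highest of all. From 19 to 22 h in DMSO it changed by -1.51 (-1.72 to -1.31) and -1.79 (-2.00 to -1.59), again the lowest of all. These steps share libraries, so a high or low library enters 2 of them. The step from 14 h also goes from a library with no treatment name to DMSO, so hour and treatment cannot be told apart in it.

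With ATRi the steps from 16 h on were smaller. EGR1 changed by 1.06 (0.86 to 1.26) from 16 to 19 h in total RNAPII, rank 28 from the top, and by 1.84 (1.52 to 2.17) in Ser2, rank 7. From 19 to 22 h it changed by -0.62 (-0.78 to -0.47), rank 62 from the bottom, and by -0.99 (-1.13 to -0.84), rank 5. The intervals of the DMSO and ATRi steps do not overlap in total RNAPII, but with 1 library per condition the difference was not tested over samples.

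**Figure D2:**
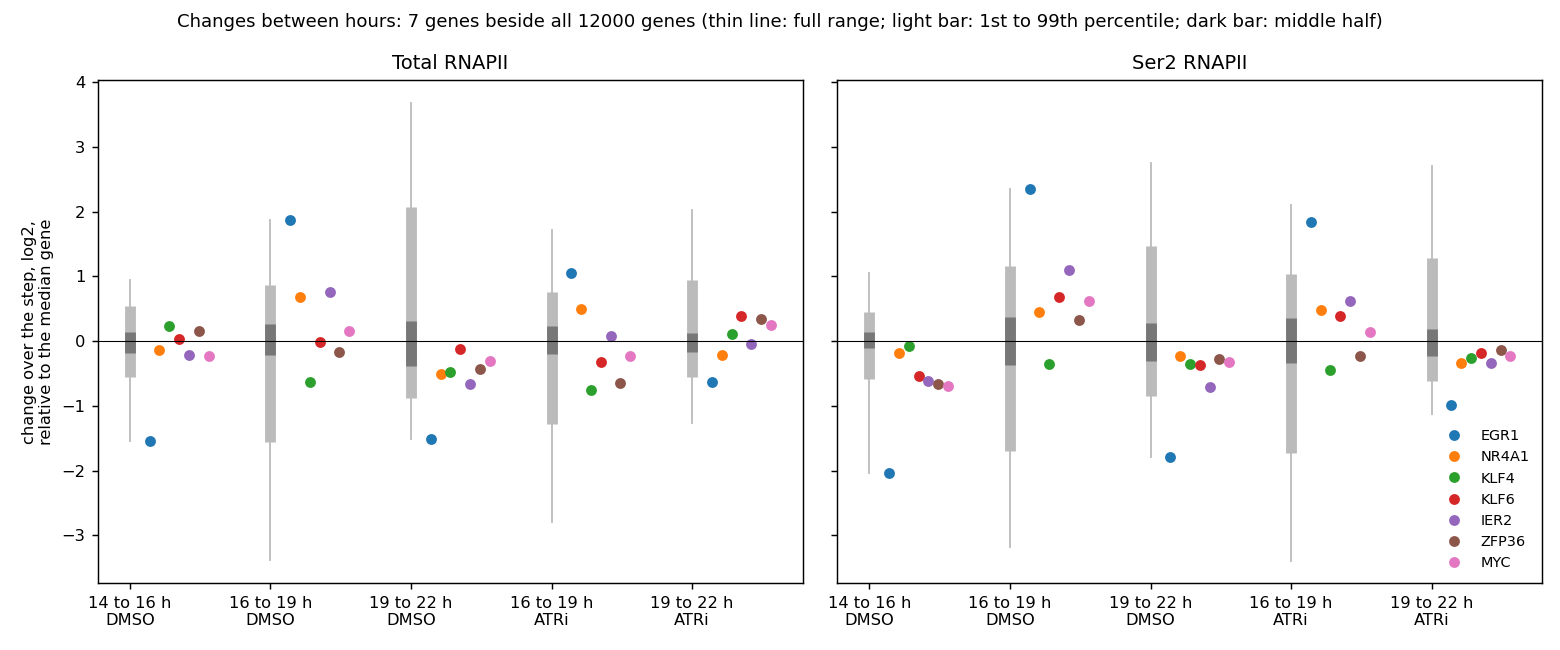
Change over each step between hours (log2, relative to the median gene) for the 7 genes (points) beside all 12000 genes (thin line, full range; light bar, 1st to 99th percentile; dark bar, middle 50 percent), for total RNAPII (left) and Ser2 (right). EGR1 lies at the end of the full range in all 3 steps that end in a DMSO library, with both antibodies. The first of these starts from the 14 h library with no treatment name.

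A change of at least 2-fold relative to the median gene was seen in EGR1 and, in 1 step, in IER2. From 14 h to 16 h DMSO, 1 of 7 members (EGR1) was lower by that much in total RNAPII, against 0.00833% of all genes, and 1 of 7 in Ser2, against 0.05%. Short of that mark, MYC (-0.69, rank 52 from the bottom), ZFP36 (-0.66, rank 70), IER2 (-0.62, rank 92) and KLF6 (-0.53, rank 188) also lay low in this Ser2 step. In total RNAPII the same step was -0.23 for MYC and -0.22 for IER2, but 0.16 for ZFP36 and 0.03 for KLF6. From 16 to 19 h in DMSO 1 of 7 was higher in total RNAPII (EGR1, 0.525% of genes) and 2 of 7 in Ser2 (EGR1 and IER2, 2.09%), while 0 of 7 were lower (3.73% and 7.11%). From 19 to 22 h in DMSO 1 of 7 was lower with each antibody (EGR1, 0.367% and 0.425%) and 0 higher (7.04% and 4.48%). With ATRi, 1 of 7 was higher from 16 to 19 h with each antibody (EGR1, 0.283% and 1.28%) and 0 of 7 lower from 19 to 22 h (0.0250% and 0.0167%), with 0 of 7 in the opposite directions (2.45% and 6.30% of genes lower from 16 to 19 h, 0.833% and 2.49% higher from 19 to 22 h). On the deposited scale, where the median gene itself rose by 0.58 in total RNAPII and 0.90 in Ser2 from 16 to 19 h in DMSO, 3 and 6 of 7 were at least 2-fold higher, against 8.88% and 43.2% of all genes. The EGR1 step with ATRi in total RNAPII fell short of 2-fold when a background density was taken off or a pseudocount of 2 RPM was used. With that background off, 1 of 7 was still 2-fold lower from 14 h to 16 h DMSO with each antibody. The shares of all genes then rose to 3.36% in total RNAPII and 0.992% in Ser2.

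IER2 had the next largest rise from 16 to 19 h in DMSO. Listed in the same order, its total RNAPII levels were 40.45 RPM at 14 h, 42.1, 102.9 and 36.6 RPM over the 3 DMSO hours and 57.5, 82.5 and 64.8 RPM over the 3 ATRi hours. Its Ser2 levels were 26.6 RPM at 14 h, 16.0, 63.8 and 24.0 RPM over the 3 DMSO hours and 21.9, 61.3 and 32.4 RPM over the 3 ATRi hours. Both 19 h libraries were above the other 5 with each antibody. Relative to the median gene the step from 16 to 19 h in DMSO was 0.75 (0.66 to 0.85) in total RNAPII and 1.09 (0.96 to 1.22) in Ser2, and with ATRi 0.08 (-0.02 to 0.18) and 0.62 (0.47 to 0.77).

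NR4A1 also peaked at 19 h in both treatments. In total RNAPII it held 33.6 RPM at 14 h, 37.2, 87.1 and 34.3 RPM over the 3 DMSO hours and 46.0, 88.7 and 61.8 RPM over the 3 ATRi hours. Ser2 gave 25.3 RPM at 14 h, 20.8, 53.0 and 27.9 RPM over the 3 DMSO hours and 25.0, 63.1 and 33.1 RPM over the 3 ATRi hours. With each antibody both 19 h libraries lay above the other 5.

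KLF6 had the highest level of the 7 genes in every library, per span as per kilobase. Total RNAPII on KLF6 was 147 RPM at 14 h, 182, 260 and 136 RPM over the 3 DMSO hours and 218, 237 and 253 RPM over the 3 ATRi hours. Ser2 on it was 125 RPM at 14 h, 81.0, 238 and 114 RPM over the 3 DMSO hours and 104, 245 and 145 RPM over the 3 ATRi hours. The 22 h ATRi library was as high as those at 19 h in total RNAPII but not in Ser2.

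KLF4 went the other way from EGR1 between 14 and 19 h in total RNAPII. It was at 29.2 RPM at 14 h, 41.7, 38.9 and 15.6 RPM over the 3 DMSO hours and 45.7, 36.6 and 32.2 RPM over the 3 ATRi hours, so that both 16 h libraries were its highest. In Ser2 it was at 19.2 RPM at 14 h, 17.1, 24.8 and 11.8 RPM over the 3 DMSO hours and 20.0, 26.4 and 14.5 RPM over the 3 ATRi hours, with its highest values at 19 h. Relative to the median gene, its step from 16 to 19 h was -0.63 in DMSO and -0.75 in ATRi in total RNAPII, and -0.35 and -0.45 in Ser2.

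ZFP36 and MYC, like KLF4, KLF6 and IER2, had their lowest total RNAPII in the 22 h DMSO library. The median gene was also lowest there among the total RNAPII libraries, at 19.8 RPM. The ZFP36 values were 22.0 RPM at 14 h, 29.9, 38.4 and 15.9 RPM over the 3 DMSO hours and 38.2, 32.8 and 33.8 RPM over the 3 ATRi hours. Its Ser2 values were 19.0 RPM at 14 h, 11.05, 25.8 and 13.0 RPM over the 3 DMSO hours and 17.0, 26.3 and 15.7 RPM over the 3 ATRi hours. ZFP36 had its highest Ser2 values at 19 h, whereas in total RNAPII its 16 h ATRi library was as high as the 19 h DMSO library. The MYC values were 34.3 RPM at 14 h, 35.4, 57.2 and 25.8 RPM over the 3 DMSO hours and 43.4, 50.4 and 48.8 RPM over the 3 ATRi hours in total RNAPII. They were 23.1 RPM at 14 h, 13.2, 38.2 and 18.7 RPM over the 3 DMSO hours and 19.1, 38.2 and 21.7 RPM over the 3 ATRi hours in Ser2, where ZFP36 and MYC both had their lowest value in the 16 h DMSO library.

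For each antibody on its own, limma was run on log2(RPM + 0.5) to set 19 h against 16 h, relative to the median gene and with p-values adjusted over all genes (Benjamini-Hochberg). This comparison was added after the values had been seen, and replicates are replaced by the 2 treatments at each hour. The p-values measure only the spread between these libraries. Limma moderates that spread toward the spread of all genes, so a p-value does not rest on the gene's own spread alone. For EGR1 in Ser2, ATRi minus DMSO relative to the median gene was -0.08, -0.59 and 0.22 at 16, 19 and 22 h. Its p-value need not reflect such a gene-specific spread. In total RNAPII 2 of 7 genes rose (3.75% of 12031 genes did) and 1 fell (6.35%). EGR1 rose by 1.47 ± 0.21 (moderated SE, n = 2 pairs, limma adjusted p = 0.0146) and NR4A1 by 0.60 ± 0.13 (0.0283), while KLF4 changed by -0.69 ± 0.16 (0.0367). IER2 (0.42, adjusted p = 0.15), ZFP36 (-0.41, 0.171), KLF6 (-0.16, 0.489) and MYC (-0.03, 0.903) did not pass. Without the 22 h libraries IER2 (0.0218) and ZFP36 (0.0124) passed too, in opposite directions, among 2513 genes higher and 2258 lower (451 and 764 with those libraries). With a background density taken off each library, EGR1 (1.22) and KLF4 (-1.03) still passed and NR4A1 (0.49, adjusted p = 0.063) did not.

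In Ser2 5 of 7 genes rose from 16 to 19 h and 1 fell, against 35.4% and 31.4% of 11989 genes. EGR1 rose by 2.10 ± 0.13 (moderated SE, n = 2 pairs, limma adjusted p = 1.8e-12), IER2 by 0.86 (5.5e-08), KLF6 by 0.54 (5.1e-06), NR4A1 by 0.47 (3.7e-05) and MYC by 0.38 (0.00237). KLF4 changed by -0.40 (6.1e-04) relative to the median gene, but by 0.45 on the deposited scale, where 85.9% of genes were called higher at 19 h. ZFP36 was at 0.05 (0.724). With a background density taken off each library, EGR1 (1.78) and KLF4 (-1.002) still passed, IER2 (0.28) and NR4A1 (0.41) did not, and KLF6 (-0.09) and MYC (-0.17) changed sign. All members but NR4A1 span under 10 kb, and genes of that length had a median of 0.30 in this comparison (n = 2541) and of 0.18 in total RNAPII (n = 2582).

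From 16 to 22 h no member passed in total RNAPII on the deposited scale, and limma called 0 of 12031 genes in either direction. KLF4 had the lowest value, -0.95 ± 0.26 (moderated SE, n = 2 pairs, limma adjusted p = 0.558), or -1.39 in the DMSO and -0.50 in the ATRi pair. It was the 1 member with an unadjusted p under 0.05, against 2.35% of genes lower at that level. DESeq2 on the recovered reads called KLF4 lower (-0.86, adjusted p = 0.00934) among 25 genes lower and 25 higher. In Ser2, 5 of 7 genes were higher at 22 h (39.0% of 11989 genes) and 1 lower (0.918%). Relative to the median gene, 3 were higher (10.2% of genes) and 1 lower (10.5%). EGR1 differed by 0.93 ± 0.15 (adjusted p = 2.0e-04), or 0.71 relative to the median gene, IER2 by 0.56 (0.34), KLF6 by 0.48 (0.26), NR4A1 by 0.40 (0.18, not passing) and MYC by 0.33 (0.11, not passing). KLF4 differed by -0.48 ± 0.10 (adjusted p = 0.00128), or -0.71 relative to the median gene, and ZFP36 by 0.06 (-0.17), not passing on either scale. EGR1 and KLF4 were the members called by both edgeR and DESeq2 as well, though neither passed with a background density taken off.

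The ATRi to DMSO difference was asked hour by hour, and for most of the genes its sign turned at 19 h, within counting error for several of them in Ser2. At 16 h all 7 genes lay above the median gene in total RNAPII and 6 of 7 in Ser2. At 19 h 1 of 7 did in total RNAPII (NR4A1) and 2 of 7 in Ser2 (NR4A1 and KLF4). At 22 h 7 of 7 did with both antibodies. The counting interval lay above 0 for 5 of 7 with each antibody at 16 h. At 22 h it did for 6 of 7 in total RNAPII but 2 of 7 in Ser2. At 19 h it lay below 0 for 5 of 7 in total RNAPII and 2 of 7 in Ser2, and above 0 for 0 and 1. The share of all genes whose interval clears 0 was not computed, so these counts have no background to be judged by. In total RNAPII the middle 50 percent of all genes ran from -0.11 to 0.11 at 16 h and from -0.24 to 0.25 at 22 h. The medians of the 7 genes were 0.23, -0.15 and 0.41 in total RNAPII and 0.26, -0.04 and 0.11 in Ser2 at the 3 hours. Over all genes they were -0.006, 0.003 and 0.015 in total RNAPII and -0.030, -0.006 and -0.010 in Ser2. All members but NR4A1 span under 10 kb. Averaged over hours, genes of that length lay above the median gene by a median of 0.08 in total RNAPII (n = 2582) and 0.07 in Ser2 (n = 2541). The part of length was not tested.

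EGR1 had the largest difference, at 19 h. Its ATRi level was 34.1 RPM against 60.0 RPM in DMSO with total RNAPII, which is -0.78 (95% counting interval -0.87 to -0.68) relative to the median gene and the lowest of 12000 genes. In Ser2 it was 29.4 against 42.3 RPM, or -0.59 (-0.71 to -0.47), the sixth lowest. At 16 h the difference was 0.04 (-0.21 to 0.29) and -0.08 (-0.47 to 0.31), and at 22 h 0.11 (-0.12 to 0.35) and 0.22 (-0.01 to 0.44), intervals that include 0. The difference at 19 h thus stood with both antibodies, each with a single pair of libraries, and it was -0.76 and -0.63 with a background density taken off.

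Of the other genes, IER2 was lower at 19 h with total RNAPII, at -0.29 (-0.35 to -0.22), rank 76 from the bottom, and less so in Ser2, at -0.13 (-0.21 to -0.04). It was higher at 16 h, at 0.39 (0.27 to 0.51) and 0.34 (0.17 to 0.52), and at 22 h, at 0.33 (0.20 to 0.46) and 0.25 (0.13 to 0.38). ZFP36 had differences of 0.29, -0.20 and 0.58 in total RNAPII and 0.51, -0.04 and 0.10 in Ser2. KLF6 had 0.20, -0.10 and 0.41, and 0.26, -0.02 and 0.17, and MYC 0.23, -0.15 and 0.42, and 0.42, -0.07 and 0.04. For these 3 genes the counting intervals at 19 h lay below 0 in total RNAPII but included 0 in Ser2.

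NR4A1 lay above the median gene at every hour, and KLF4 lay near it at 19 h. NR4A1 had 0.24, 0.05 and 0.35 in total RNAPII and 0.16, 0.18 and 0.07 in Ser2. KLF4 had 0.07, -0.06 and 0.53, and 0.13, 0.02 and 0.11. In total RNAPII the values at 22 h rested on a DMSO library with a low share of reads in genes (42.8% against 57.4% with ATRi, the median gene differing by 0.50), and the part of that share was not tested. With a background density taken off they became 0.25 for ZFP36 and KLF4, 0.10 for MYC, 0.06 for KLF6, -0.01 for IER2 and -0.19 for EGR1. In Ser2 the 22 h values then fell on both sides of 0, from -0.12 (MYC) to 0.10 (EGR1).

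**Figure D3:**
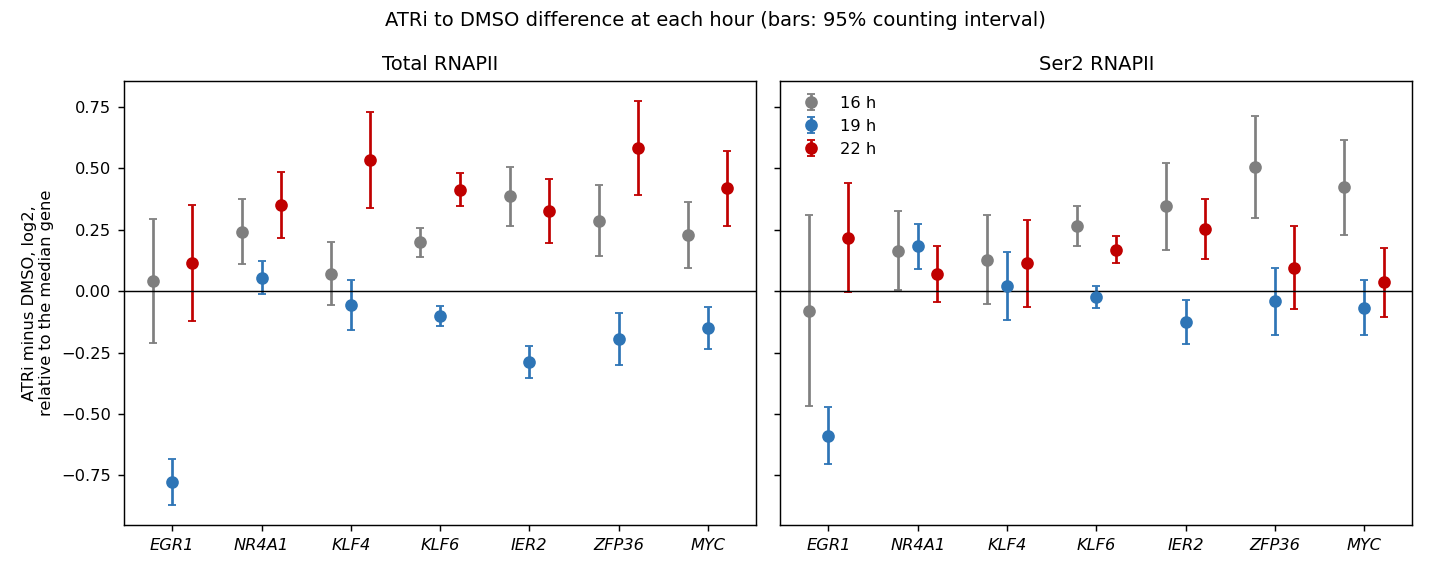
ATRi minus DMSO (log2, relative to the median gene) at 16, 19 and 22 h for each gene in total RNAPII (left) and Ser2 (right), 1 pair of libraries per point, bars the 95% counting interval. EGR1 at 19 h lies lowest with both antibodies, at -0.78 and -0.59, while at 16 and 22 h most genes lie above 0.

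Averaged over the hours, with hour as a block, limma called 0 members and 0 of 12031 genes in total RNAPII (0% of genes either way), and 204 genes had an unadjusted p under 0.05, all higher (1.70%). The mean log2 difference was above 0 for 6 of 7 genes, at 0.40 ± 0.22 for ZFP36, 0.39 ± 0.19 for NR4A1, 0.36 ± 0.21 for KLF4, 0.34 ± 0.19 for KLF6, 0.34 ± 0.20 for MYC and 0.31 ± 0.20 for IER2 (moderated SE, n = 3 pairs, limma adjusted p = 0.767 each), while EGR1 was at -0.03 ± 0.24 (0.947). The median gene was at 0.18, so that relative to it these values were 0.14 to 0.22 and -0.21. NR4A1 was the 1 member with an unadjusted p under 0.05. Without the 22 h libraries the values fell to 0.16 for NR4A1, 0.06 for ZFP36, KLF6 and IER2, 0.05 for MYC and 0.02 for KLF4, with 0 members called, and EGR1 was at -0.35. edgeR called 0 (63 genes at an unadjusted p under 0.05) and DESeq2 0 (57).

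In Ser2 limma also called 0 of 11989 genes, with 2630 higher at an unadjusted p under 0.05 (21.9%), or 632 relative to the median gene (5.27%, with 6.56% lower). The same 6 genes had such a p, at 0.20 (KLF4) to 0.30 (ZFP36) with adjusted p-values from 0.0946 to 0.171 by limma, but only ZFP36 relative to the median gene, at 0.19. EGR1 was at -0.04 ± 0.12 (moderated SE, n = 3 pairs, limma adjusted p = 0.868). Without the 19 h libraries 4 members passed in Ser2, ZFP36 at 0.43 (adjusted p = 0.00894), IER2 at 0.43 (0.00680), MYC at 0.36 (0.0344) and KLF6 at 0.35 (0.00770), among 848 genes higher and 0 lower, and EGR1 was then at 0.20 (0.397). DESeq2 left 6 of the 7 without an adjusted p. No test of the difference in ATRi effect between antibodies passed, with 0 of 12013 genes called by limma. Of all genes, 0.0333% had an unadjusted p under 0.05 upward and 0.0416% downward (0.175% and 0.0916% relative to the median gene), none of them a member. Member values ran from -0.16 to -0.01 against -0.06 for the median gene.

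Relative to the median gene, Ser2 was low against total RNAPII over these genes. Limma over the 7 conditions called 6 of 7 lower (24.5% of 12000 genes were) and 0 higher (30.1%). The difference was -0.49 ± 0.06 for IER2 (moderated SE, n = 7 pairs, limma adjusted p = 1.9e-04), -0.44 ± 0.07 for MYC (3.6e-04), -0.44 ± 0.06 for KLF4 (2.2e-04), -0.40 ± 0.09 for EGR1 (0.00208), -0.35 ± 0.09 for ZFP36 (0.00619) and -0.27 ± 0.05 for NR4A1 (7.0e-04). KLF6 was at -0.15 ± 0.09 (0.187) and did not pass. The 5 genes EGR1, NR4A1, KLF4, IER2 and MYC were below the median gene in 7 of 7 conditions, ZFP36 in 6 and KLF6 in 4.

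The difference varied with the hour. EGR1 was lowest at 16 h (-0.69 in DMSO, -0.81 in ATRi) and nearest to 0 at 19 h with ATRi (-0.02). IER2 ranged from -0.78 to -0.24, ZFP36 from -0.77 to 0.05, MYC from -0.76 to -0.21, KLF4 from -0.66 to -0.24 and NR4A1 from -0.43 to -0.14. KLF6 was at -0.54 and -0.47 at 16 h but at 0.16 and 0.24 at 19 h. Genes under 10 kb had a median of -0.23 in this comparison (81.2% of 2551 below 0) and longer genes 0.05, and the part of length in the members' values was not tested. With a background density taken off, EGR1 (-0.25, adjusted p = 0.0597) and ZFP36 (-0.12, 0.219) no longer passed. ZFP36 also missed without the 16 h libraries (0.0525), and KLF6 passed without those at 19 h (0.0239).

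**Figure D4:**
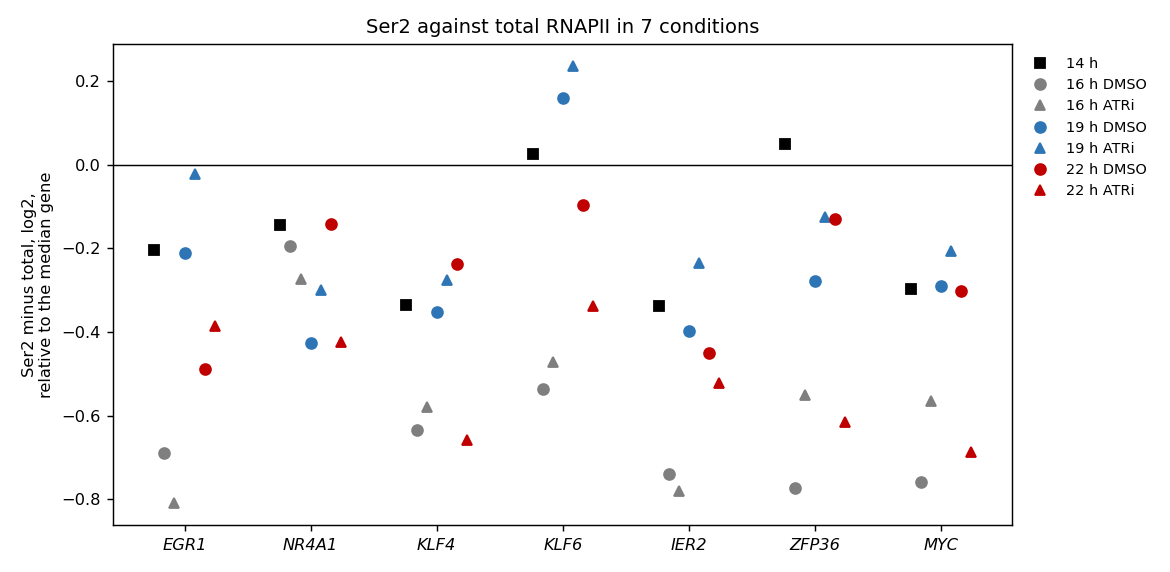
Ser2 minus total RNAPII (log2, relative to the median gene) for each gene in the 7 conditions, 1 pair of libraries per point. Nearly all points lie below 0, KLF6 at 14 and 19 h and ZFP36 at 14 h being the exceptions.

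Other serum response genes were set beside the members from a list of 58, of which 46 were measured, AP-1 genes included. From 16 to 19 h, relative to the median gene, 5 of 46 rose and 2 fell in total RNAPII by limma (10.9% and 4.35%, against 3.75% and 6.35% of all genes). In Ser2 27 rose and 4 fell (58.7% and 8.70%, against 35.4% and 31.4% of all genes). The medians were -0.06 in total RNAPII and 0.34 in Ser2, against 0.06 and 0.04 over all genes. The highest were SPRY4, a feedback inhibitor of receptor tyrosine kinase signalling (1.18 in total RNAPII, 1.66 in Ser2), and ERRFI1, which inhibits the EGF receptor (1.14 and 1.25). The lowest was PIM1, a serine/threonine kinase gene (-1.44 and -0.84), followed in Ser2 by BTG2, an antiproliferative gene (-0.37), and all of these passed. From 16 to 22 h in Ser2, 25 of 46 were higher and 1 lower (54.35% and 2.17%, against 39.0% and 0.918% of all genes). Relative to the median gene 14 were higher and 3 lower (30.4% and 6.52%, against 10.2% and 10.5%). SPRY4 (1.14, or 0.92 relative to the median gene) and ERRFI1 (0.93, or 0.71) were again at the top. Averaged over hours, the ATRi difference was above 0 for 46 of 46 in total RNAPII (median 0.33) and 44 of 46 in Ser2 (median 0.26), with 0 called. Of all genes, 10675 of 12031 and 10071 of 11989 were above 0. Relative to the median gene 42 and 39 of 46 were above 0, against 6174 and 5469 of all genes. The Ser2 to total difference was lower for 31 of 46 and higher for 0 (67.4% and 0%, against 24.5% and 30.1% of all genes). It was lowest for BTG2 (-0.48) and CEBPB (-0.48). Among genes under 10 kb 81.2% were below 0 in this comparison, and the part of length was not tested.

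Growth factor signalling genes and the factors that act on immediate early promoters formed a second list. Of 40 measured genes, 3 rose and 0 fell from 16 to 19 h in total RNAPII (7.5% and 0%, against 3.75% and 6.35% of all genes). In Ser2 16 rose and 10 fell. Those 40.0% and 25.0% in Ser2 lay near the 35.4% and 31.4% of all genes. RASA1, a GTPase-activating protein for Ras, rose (0.72 and 0.98), as did ELK3, an ETS partner of SRF (0.71 and 0.83). MRTFB, an SRF coactivator, was at -0.51 (not passing) in total RNAPII and fell in Ser2 (-0.73), and MAPK9, the JNK2 gene, was at -0.43 (not passing) and fell in Ser2 (-0.57). From 16 to 22 h in Ser2 relative to the median gene 7 of 40 were higher and 3 lower (17.5% and 7.5%, against 10.2% and 10.5% of all genes). The lower ones included SRF itself (-0.34, or -0.11 and not passing on the deposited scale) and MAPK3, the ERK1 gene (-0.41, or -0.19 and not passing). The ATRi difference called 0 of 40 with either antibody, with medians of 0.19 and 0.11 against 0.18 and 0.10 over all genes.

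MYC partners and textbook MYC targets (38 measured) had 4 that rose and 0 that fell from 16 to 19 h in total RNAPII (10.5% and 0%, against 3.75% and 6.35% of all genes). In Ser2 23 rose and 5 fell (60.5% and 13.2%, against 35.4% and 31.4% of all genes), with a median of 0.33 there. SHMT2, of mitochondrial one-carbon metabolism, rose in total RNAPII (0.75). The translation factor genes EIF5A (0.88) and EIF4E (0.81) rose in Ser2, and MXD4, a MAX partner that opposes MYC (-0.49), and PHB1, prohibitin (-0.59), fell there. The ATRi difference called 0 of 38. Ser2 was lower against total RNAPII for 16 and higher for 4 (42.1% and 10.5%, against 24.5% and 30.1% of all genes).

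Relatives of the members differed widely in level. Of 20 paralogs 12 were measured, and these did not include a second member of the NR4A or MYC families. The median density in total RNAPII was 20.7 RPM per kb for KLF2, 12.4 for ZFP36L1 and 9.39 for ZFP36L2, against 12.6 for ZFP36, but 0.241 for EGR3 against 4.63 for EGR1. KLF10 was at 4.36 and KLF12 and KLF13 at 0.419 and 0.407. From 16 to 19 h 0 of 12 passed in total RNAPII, where 3.75% of all genes rose and 6.35% fell. In Ser2 5 rose, led by KLF7 (0.56) and ZFP36L1 (0.54), and 4 fell, led by EGR3 (-0.81) and KLF12 (-0.68), shares of 41.7% and 33.3% near the 35.4% and 31.4% of all genes. KLF10 had the highest mean ATRi difference of the list in total RNAPII (0.49, limma adjusted p = 0.767) and KLF2 in Ser2 (0.35, 0.0824).

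The genes with the pattern most like each member were found by Pearson's r over the 14 libraries, after centring each library on its median gene and each antibody on its mean. These libraries share hours and treatments, so r is a description only. For EGR1 they were TMEM167A (0.947), GOLT1B (0.935) and F3, the tissue factor gene (0.915). For NR4A1 they were YJU2 (0.969), DCAKD (0.965) and WDR81 (0.962), and for KLF4 ARL6IP6 (0.957), CIMAP1B (0.948) and E2F1, an S phase transcription factor gene (0.945). KLF6 was nearest to CALM2 (0.955), TUBB4B (0.930) and IER5 (0.924), and IER2 to TBX3 (0.982), MYL12B (0.975) and LINC00941 (0.971). ZFP36 was nearest to COL1A1, a type I collagen gene (0.939), CARMN (0.919) and CAV1 (0.904), and MYC to MYL9 (0.930), JUN (0.902) and TRNP1 (0.900).

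Among the members themselves the patterns were not uniform. KLF6 and MYC (r = 0.843), NR4A1 and IER2 (0.831) and EGR1 and IER2 (0.787) were most alike, as were KLF4 and ZFP36 (0.772). NR4A1 and KLF4 were least alike (-0.432), followed by IER2 and KLF4 (-0.235) and EGR1 and KLF4 (-0.196). None of the 7 genes was among the 3 nearest of another.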

How the data were processed

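The deposited table gives, per the file headers, gene spans, Ensembl identifiers and 1 column per library, and its values are RPM, reads scaled to the library's total as the authors computed them and not divided by length. The submitters' processing notes name hg38, SAMtools 1.4 and the aligner Bowtie2 2.3.3.1. The counting tool, annotation, duplicates, input and spike-in are not given in the sources used here, and the extraction protocol names histone antibodies only, so the RNAPII antibodies rest on the labels. Without a spike-in, a change in all genes cannot be told from immunoprecipitation efficiency. Dividing each column by its smallest step gave whole reads (tolerance 0.01 reads, 100.0% of values) and, from these, library totals. Symbols were assigned by position against RefSeq GRCh38.p14 (Jaccard index of at least 0.8, or 0.5 with an end within 100 bp), naming 10731 genes (86.4%).

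Log2(RPM + 0.5) was tested two-sided in R 4.3.3 with limma 3.58.1 and its trended eBayes, at an adjusted p of 0.05. Genes averaging under 1 RPM and 14 mitochondrial genes were left out. The ATRi and 22 h comparisons used the deposited scale, and the Ser2 to total and 19 h comparisons each library centred on its median gene. edgeR 4.0.16 and DESeq2 1.42.0 on the recovered reads, other scalings, pseudocounts of 0.1 and 2 RPM, no filter, subtraction of a background density (5th percentile of RPM per kb over genes of at least 10 kb) and leaving out hours were alternatives. The fits were tested on simulated data. In single libraries, rank and 2-fold counts were used in place of a test. Besides the members, the text names the 2 highest and 2 lowest genes of a list and the 3 genes nearest to each member, leaving out those within 100 kb. One item that this rule names is not reported here. The members and lists were chosen with earlier results of these data known.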

Additional observations from a re-analysis of the deposited data

Results flagged for a closer look

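For 5 genes the ATRi to DMSO difference, relative to the median gene, lay on one side of 0 with both antibodies at one hour and on the other side with both at another hour. The share of all genes that do so was not computed, so this count has no background to be judged by. The difference between hours was not tested, since each antibody has 1 pair of libraries per hour and both antibodies may share the chromatin. Several of these sides were not clear of counting error: in Ser2 at 19 h the 95% counting interval was -0.07 to 0.02 for KLF6, -0.18 to 0.095 for ZFP36 and -0.18 to 0.04 for MYC, in Ser2 at 22 h it was -0.07 to 0.26 for ZFP36 and -0.11 to 0.18 for MYC, and for EGR1 at 22 h it was -0.12 to 0.35 in total RNAPII and -0.01 to 0.44 in Ser2. EGR1 was lower at 19 h than at 22 h by a mean over the antibodies of -0.85 (19 h minus 22 h, log2). IER2 differed by 0.57 (16 h minus 19 h) and -0.5 (19 h minus 22 h), ZFP36 by 0.51 and -0.46, MYC by 0.43 and -0.34, and KLF6 by 0.29 and -0.35. The 22 h values became smaller in total RNAPII with a background density taken off (0.06 for KLF6, -0.01 for IER2) and fell below 0 in Ser2 for MYC (-0.12), ZFP36 (-0.06) and KLF6 (-7e-04), whereas EGR1 at 19 h stayed at -0.76 and -0.63. EGR1 at 22 h then became -0.19 in total RNAPII, the same side as at 19 h, and 0.10 in Ser2.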

How the results depend on the processing

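Libraries are single, so values carry no replicate error. Replicates could not be paired because the labels give no replicate numbers to pair by and each group has 1 library. The block was hour, treatment or condition instead. The cause of the changes below was not tested.

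Of the counts of members, 198 alternatives stayed within 1.5 times and 24 did not. On the deposited scale the members at least 2-fold higher from 16 to 19 h in DMSO numbered 3 in total RNAPII (1 relative to the median gene) and 6 in Ser2 (2), and 4 with ATRi in Ser2 (1), against 8.88%, 43.2% and 40.2% of all genes. The members at least 2-fold lower from 19 to 22 h were then 6 and 5 in DMSO (1 each) and 1 with ATRi in Ser2 (0), against 42.5%, 24.0% and 6.47% of all genes. With background taken off, 1 member was at least 2-fold higher from 16 to 19 h in Ser2 in DMSO, against 4.38% of genes. In total RNAPII with ATRi 0 were (2.93% of genes), also 0 with a pseudocount of 2 RPM (0.192%). With background taken off, 1 was at least 2-fold lower from 16 to 19 h with ATRi with each antibody (0). The shares of all genes there were 3.68% in total RNAPII and 9.62% in Ser2. For ATRi in Ser2, leaving out hours gave 0 to 4 members higher, the 4 without 19 h. The 22 h comparison in Ser2 called 5 higher, 3 with centring or quantile normalization, 1 by edgeR or DESeq2 and 0 with background taken off, where 0 were also lower (1), and in total RNAPII DESeq2 called 1 lower (0). The 19 h comparison called 1 higher in total RNAPII with background taken off (2) and 1 in Ser2 (5), 0 lower on the deposited scale with either antibody (1 each), and 1 to 2 lower in total RNAPII when 22 h was left out.

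Among 587 alternative values of single genes, 35 had another sign than the value reported. A further 56 values came from 1 treatment alone, with no test, and 7 of them changed sign, at 22 h NR4A1 (-0.12), KLF6 (0.22), IER2 (0.17) and MYC (0.17) in total RNAPII and ZFP36 in Ser2 (-0.11), and at 19 h MYC in total RNAPII (0.16) and ZFP36 in Ser2 (-0.23). Leaving out hours gave EGR1 a mean ATRi difference from -0.352 (without 22 h) to 0.352 (without 19 h) in total RNAPII and from -0.254 to 0.202 in Ser2. The Ser2 minus total ATRi effect of EGR1, -0.01, became 0.0578 with centring, 0.0796 with quantile normalization, 0.0944 by edgeR and 0.0453 by DESeq2, and ranged from -0.15 to 0.0982 when hours were left out. For IER2 (-0.05) it became 0.0171 with centring, 0.0437 by edgeR and 0.0017 by DESeq2. Over the hours left out it ranged from -0.322 to 0.0898 for NR4A1, -0.323 to 0.131 for KLF4, -0.23 to 0.136 for KLF6, -0.199 to 0.125 for IER2, -0.276 to 0.251 for ZFP36 and -0.26 to 0.203 for MYC, highest without 22 h in each case. From 16 to 22 h in total RNAPII, IER2 (-0.01) became 0.068 with centring, 0.0108 with quantile normalization, 0.0529 by edgeR and 0.0702 by DESeq2, and in Ser2 ZFP36 (0.06) became -0.17, -0.17, -0.15 and -0.17. On the deposited scale the 19 h values in total RNAPII became 0.32 for KLF6, 0.0692 for ZFP36 and 0.448 for MYC, and 0.45 for KLF4 in Ser2. With background taken off, KLF6 (-0.0879), ZFP36 (-0.56) and MYC (-0.17) changed sign at 19 h in Ser2, KLF6 became 0.0923 in the Ser2 to total difference, and at 22 h ATRi minus DMSO became -0.0129 for IER2 in total RNAPII and -7e-04 for KLF6 in Ser2. Of the 42 hourly ATRi values, 7 changed sign with background taken off, and for 5 of these the counting interval included 0 beforehand.

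Over all genes, the counts higher and lower at 22 h in Ser2 were 4678 and 110, but 1221 and 1262 with centring, 1212 and 1104 with quantile normalization, 1054 and 795 by edgeR, 623 and 597 by DESeq2, and 0 and 3 with background taken off. In total RNAPII the 0 and 0 became 25 and 25 by DESeq2 and 5 and 12 with background taken off. For ATRi in Ser2 the 0 and 0 became 38 and 6 without 16 h and 848 and 0 without 19 h. The Ser2 to total counts of 3609 and 2944 became 455 and 9445 on the deposited scale and 1725 and 1618 with background taken off. At 19 h the 451 and 764 in total RNAPII became 4791 and 283 on the deposited scale, 220 and 257 with background taken off and 2513 and 2258 without 22 h, and in Ser2 the 4248 and 3770 became 10294 and 680 and 1553 and 1410. The step counts, the hourly values without background and the 19 h alternatives were chosen after seeing the data.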
